A study of Drosophila melanogaster with 18 samples.

Results

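The Notch set examined here held the receptor N (Notch), its ligands Dl (Delta) and Ser (Serrate), and 7 bHLH genes of the Enhancer of split complex, E(spl)m3-HLH, E(spl)m5-HLH, E(spl)m7-HLH, E(spl)m8-HLH, E(spl)mbeta-HLH, E(spl)mgamma-HLH and E(spl)mdelta-HLH. Members were found by gene symbol. They were 10 of the 17753 genes in the deposited exon counts and had 41 of the 87508 exon records, an exon record being an exon of an annotated transcript. N had 10 records, Dl 8, Ser 16, and each E(spl) gene 1. All 41 records matched an exon in the reference annotation, and 0 overlapped a record of another gene.

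The libraries came from whole Drosophila melanogaster pupae at 48 hr after puparium formation (APF), with about 1000 flies pooled in each sample. All 4 groups carried the same alleles, w/(w or Y) with P[w+mC, UAS-Gal4] and P[w+mC, UAS-GFP::RpL10A] and with fru P1-Gal4/+, so a GFP-tagged ribosomal protein was made where fru P1-Gal4 is active. TRAP libraries (5 male, 4 female) hold mRNA pulled down with the tagged ribosomes. Total mRNA libraries (5 male, 4 female) hold the mRNA of the same lysates. No animal lacking the driver was analysed here, so RNA that came down without the tag was not measured.

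Notch is a receptor that is cut after it binds Delta or Serrate on a neighbouring cell. Its intracellular part then enters the nucleus, joins Su(H) and mastermind, and switches on the E(spl) bHLH genes, which encode repressors that hold back the proneural genes. In the fly nervous system the pathway selects sensory organ precursors, separates sibling neurons after a division, and acts in neural stem cells and glia.

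The total count per library was 24901633 to 67491630. Levels are given as RPM, reads per 1000000 counted reads of a library. The summed level of 7 neuronal markers was 1490 to 3185 RPM in male TRAP libraries and 362 to 520 in their lysates, and 2075 to 3025 against 526 to 805 RPM in females, with all 7 reaching 1 RPM in every group. The 5 fat body markers also summed higher in TRAP, at 2536 to 8151 against 763 to 1007 RPM in males and 7310 to 13932 against 1188 to 1331 RPM in females. The 5 male germline markers summed to 587 to 3128 RPM in TRAP and 1099 to 1853 RPM in total mRNA of males, and to at most 25.4 RPM in a female library. In such mixed tissue, fewer cells of a type and less RNA per cell cannot be told apart, and the part of these markers in the results for the Notch set was not tested.

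Counts per gene were summed over exon records that do not overlap, and genes are compared with each other as RPM per kb of exon (RPKM). E(spl)mbeta-HLH had the highest level of the set per summed exon length in every group. In male TRAP it had 26.8 ± 4.12 RPKM (SD, n = 5), followed by N at 10.4 ± 1.73, Dl at 9.07 ± 1.25, E(spl)m7-HLH at 6.79 ± 1.21, E(spl)m3-HLH at 5.08 ± 1.17 and Ser at 4.59 ± 0.484 RPKM. In male total mRNA it had 20.9 ± 1.85 RPKM, followed by E(spl)m7-HLH at 5.23 ± 0.474, Ser at 4.90 ± 0.141, E(spl)m3-HLH at 4.73 ± 0.495, N at 4.41 ± 0.365 and Dl at 4.15 ± 0.522 RPKM. In both groups each gene from the second to the sixth overlapped its neighbour within 1 SD. The value of N averages over unequal exons. Its first exon and the longer form of its last exon had 36.1 and 33.9 RPM per kb in male TRAP, above E(spl)mbeta-HLH. In male total mRNA they had 15.3 and 12.2 RPM per kb, below it.

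In female TRAP E(spl)mbeta-HLH had 29.8 ± 1.68 RPKM (SD, n = 4), followed by N at 13.2 ± 1.46, E(spl)m7-HLH at 10.8 ± 4.22, Dl at 10.2 ± 2.28, E(spl)m3-HLH at 7.72 ± 0.367 and Ser at 4.27 ± 0.402 RPKM. In female total mRNA it had 34.4 ± 2.21 RPKM, followed by E(spl)m3-HLH at 9.62 ± 0.446, E(spl)m7-HLH at 9.24 ± 0.0702, N at 8.84 ± 1.92, Dl at 6.77 ± 1.45 and Ser at 5.42 ± 0.389 RPKM. Neighbours from the second place down overlapped within 1 SD here too, except E(spl)m3-HLH and Ser in female TRAP. The mean levels of N and Dl stood above that of Ser in both TRAP groups and below it in male total mRNA, where N and Ser were within 1 SD. The other 4 E(spl) genes were lower, at most 2.08 ± 1.88 RPKM (E(spl)mgamma-HLH in female TRAP). In females the same exons of N had 48.0 and 41.2 RPM per kb in TRAP, above E(spl)mbeta-HLH, and 31.5 and 27.6 in total mRNA, below it.

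**Figure D1:**
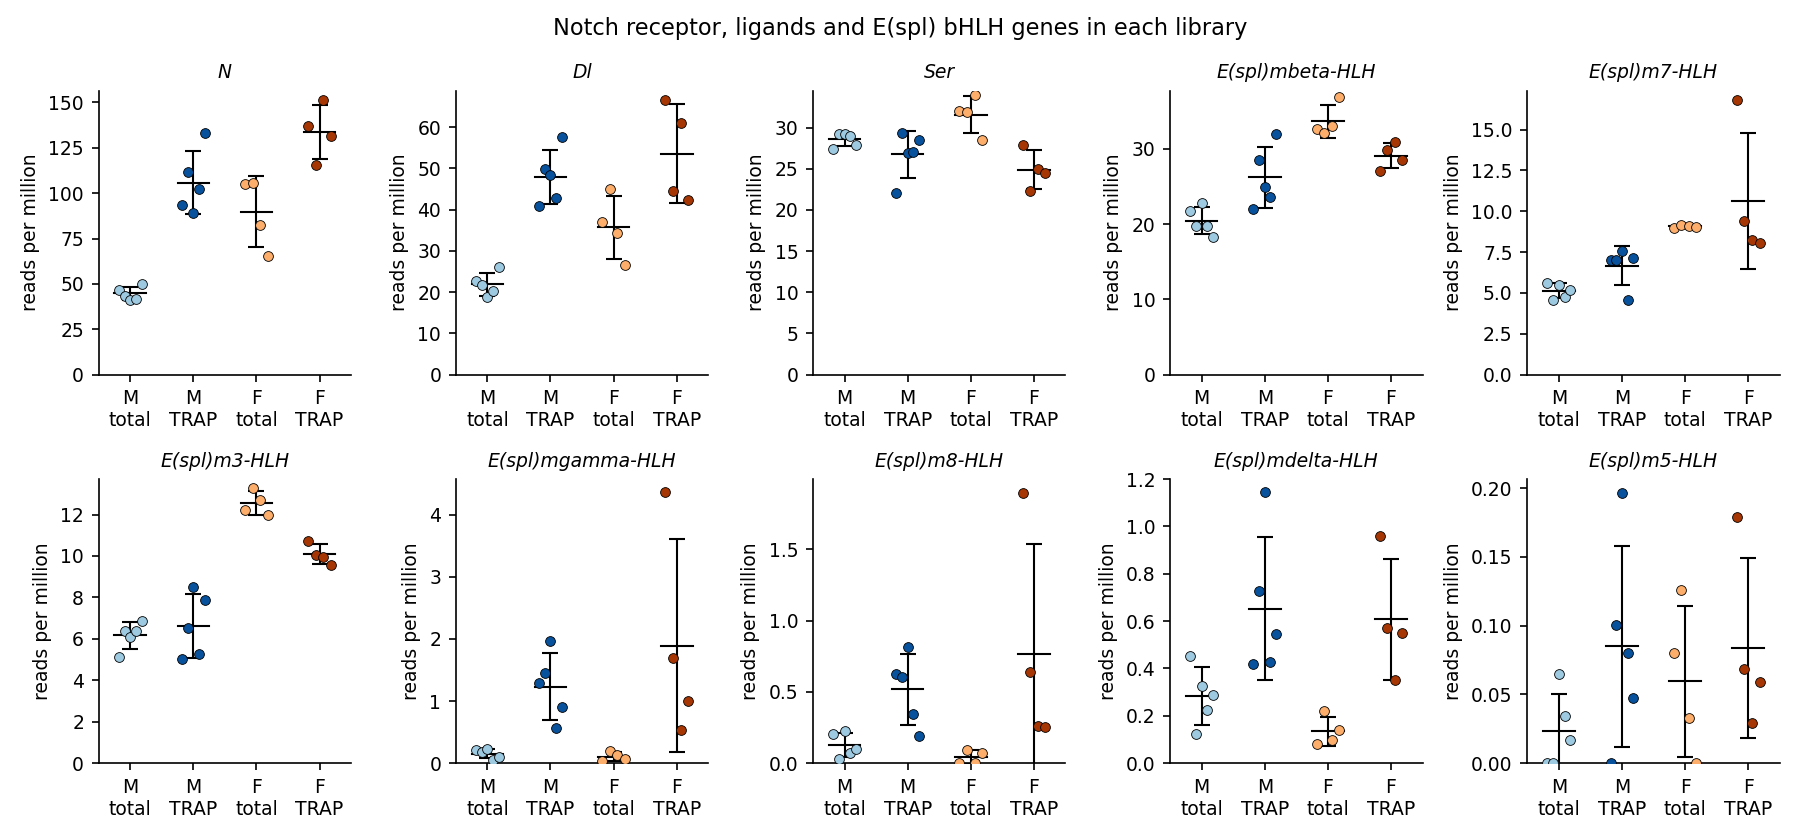
Level of each of the 10 genes in RPM (vertical axes start at 0 and differ between panels) in male (M) and female (F) total mRNA and TRAP libraries; points are libraries, horizontal lines are means and bars are 1 SD. N lies at 88.9 to 133 RPM in male TRAP, above all male total mRNA libraries, while Ser is at 22.1 to 29.3 RPM there and overlaps male total mRNA.

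Records were tested with edgeR's exact test after TMM scaling if they exceeded 2 counts per 1000000 of the library total, before scaling, in 60% or more of the libraries of a comparison. CPM values given below are counts per 1000000 after scaling. A gene counted as called in a direction if any of its records had a Benjamini-Hochberg adjusted p (FDR) under 0.2. N, Dl, Ser, E(spl)m3-HLH, E(spl)m7-HLH and E(spl)mbeta-HLH had tested records in each comparison, and the other 4 members were too low. In male TRAP against male total mRNA 11 of 12 member records were higher, where 39.2% of all records were, and 1 was lower, where 38.3% were. All 6 genes had a higher record (43.5% of the 10499 genes tested did), and Ser also had a lower one (50.0% of genes).

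In females 9 of 15 member records were higher in TRAP (35.6% of all records) and 4 were lower (33.5%). N and Dl had a higher record, against 38.4% of genes, and Ser, E(spl)m3-HLH and E(spl)mbeta-HLH a lower one, against 48.4%. The median log2 fold change of TRAP over total mRNA was 0.75 for the members' tested records in males and 0.47 in females, with medians of all tested records of −0.01 and 0.00. N and Dl gave 10 of the 15 female records, some of them nested, so each gene was also counted once. Over the gene sums of the 6 genes the median was 0.54 in males and 0.0225 in females, beside −0.0230 and −0.0327 over all genes. In the comparison of TRAP between the sexes, Ser was higher in males (31.7% of genes) and E(spl)m3-HLH and E(spl)m7-HLH were lower (25.6% of genes). In total mRNA 3 of 12 member records, of Dl and Ser, were higher in males (38.8% of records, 47.3% of genes). Another 7, of all tested members but Ser, were lower (36.6% of records, 46.2% of genes). The TRAP and sex comparisons share libraries, so they are not independent of each other.

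**Figure D2:**
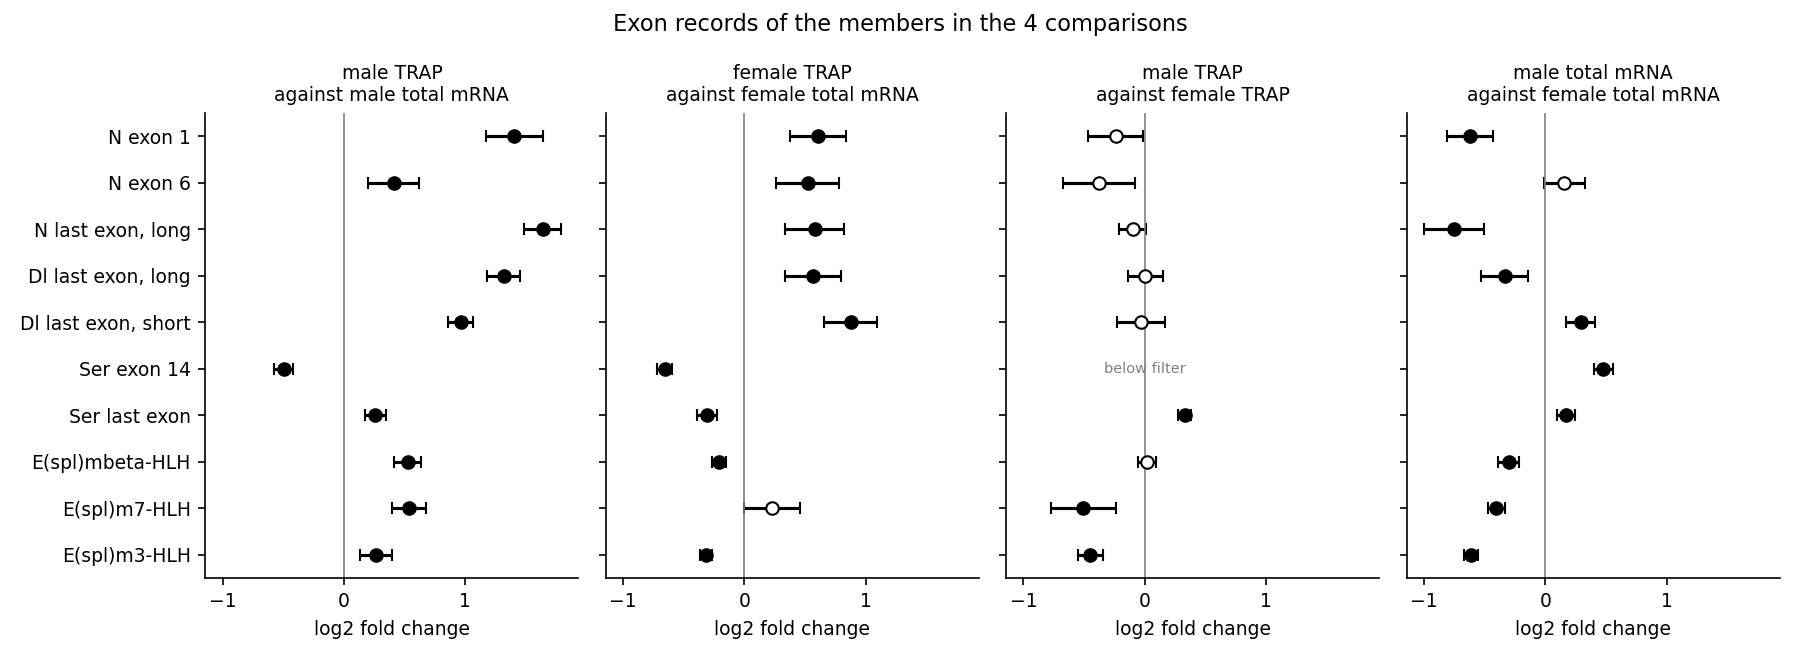
Log2 fold changes (edgeR) of 10 exon records of the 6 tested genes in the 4 comparisons, with bars of 1 SE and filled circles where FDR is under 0.2. The N last exon is at 1.64 in males and 0.58 in females for TRAP against total mRNA, and Ser exon 14 is below 0 in both.

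The receptor was higher in TRAP in both sexes. N (chromosome X, 3134870 to 3172221, plus strand, dm6) had 93.3, 112, 88.9, 102 and 133 RPM in male TRAP replicates 1, 2, 3, 5 and 6, and 46.9, 43.6, 41.2, 41.9 and 50.1 RPM in the total mRNA of these lysates. The male groups did not overlap, and the ratio of means was 2.37. In females N had 137, 115, 151 and 132 RPM in TRAP replicates 2, 3, 4 and 5, and 105, 106, 82.2 and 65.6 RPM in total mRNA. These groups did not overlap either, and the ratio of means was 1.49. Female total mRNA held 2.01 times the N level of male total mRNA (89.7 ± 19.5 RPM, SD, n = 4, against 44.7 ± 3.71 RPM, SD, n = 5), without overlap. RPM uses library totals, on which the median log2 difference of all tested records was −0.43 in males against females. With TMM the gene sum of N differed by −0.66 (SE 0.19, edgeR adjusted p = 4.25e-05). Some marker sums for other tissues were higher in the same female libraries, with no overlap: 8203 to 9940 against 3336 to 4528 RPM for 6 muscle markers, 448 to 553 against 303 to 373 RPM for 5 epidermis and cuticle markers, and 210 to 249 against 106 to 145 RPM for 5 hemocyte markers (mostly Col4a1 and Pxn, while Hml overlapped). The sum of 7 glial markers was lower in females, at 177 to 185 against 273 to 313 RPM. That came from nrv2 (62.6 to 72.7 against 223 to 248 RPM), and the other glial markers were each higher in females. The epidermis and cuticle sum was also higher in male TRAP (448 to 652 RPM) than in its lysates, and at 496 to 649 RPM in female TRAP it overlapped the female lysates. In males grh, Fas3 and crb were above total mRNA without overlap, while shg and dyl overlapped. In females dyl was lower in TRAP (43.9 to 55.4 against 58.7 to 72.5 RPM), and shg, grh, Fas3 and crb overlapped. For the sum of 5 sensory organ precursor and socket markers, neur among them, TRAP lay above total mRNA in both sexes (71.8 to 95.7 against 46.5 to 51.5 RPM, and 82.8 to 188 against 63.8 to 72.9 RPM). Of these markers only neur and sv were above total mRNA without overlap in both sexes. The level of sens overlapped in both sexes, and that of pnt did so in females. Sox15 overlapped in males and was lower in female TRAP (3.01 to 4.07 against 4.30 to 5.59 RPM). The part of these markers in the levels of N, Dl and the E(spl) genes was not tested.

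The records of N differed in size of change. Its last exon, which holds the end of the coding sequence and the 3′ UTR (3170635 to 3172221 in the longer form), had 59.1 ± 6.83 CPM in male TRAP against 19.0 ± 4.06 CPM in total mRNA, a log2 fold change of 1.64 (SE 0.15, edgeR adjusted p = 4.52e-20). In females the log2 fold change was 0.58 (SE 0.24, edgeR adjusted p = 0.0108). The first exon (3134870 to 3135827) rose by 1.40 on the log2 scale in males (SE 0.23, edgeR adjusted p = 2.03e-09) and by 0.61 in females (SE 0.23, edgeR adjusted p = 0.00714). In total mRNA the first exon was lower in males, at −0.62 (SE 0.19, edgeR adjusted p = 0.000334), and so was the last, at −0.75 (SE 0.25, edgeR adjusted p = 0.000280). These sizes depended on single libraries. With each left out in turn they ran from −1.11 to −0.52 for the first exon and from −1.30 to −0.68 for the last.

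Exon 6 of N, at 6149 bp its longest, had log2 fold changes of 0.41 in males (SE 0.21, edgeR adjusted p = 0.0861) and 0.52 in females (SE 0.26, edgeR adjusted p = 0.0702). The male call was lost with library totals in place of TMM (0.24, adjusted p = 0.388) and without male total mRNA replicate 1 (0.33) or 6 (0.31) or male TRAP replicate 3 (0.26). The female call was lost without female TRAP replicate 2 (0.21, adjusted p = 0.294).

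The reads of N lay mostly at the ends of the gene. In male TRAP the first exon had 36.1 RPM per kb and the long last exon 33.9, while exon 6 between them had 0.848. The density of exon 1 was 42.6 times that of exon 6 in male TRAP, 21.3 times in male total mRNA, 39.5 times in female TRAP and 37.2 times in female total mRNA. Exons 7 and 8, downstream of exon 6, had mean densities of 2.67 and 2.34 RPM per kb in male TRAP against 3.14 and 3.21 in total mRNA, and did not pass the filter on low counts. In fits without that filter, in which 29.1% of 84932 records were lower in male TRAP and 16.1% of 83367 in female TRAP, exon 8 was called lower in males (−0.47, SE 0.11, edgeR adjusted p = 0.0490) and exon 7 was not (−0.23, SE 0.20, edgeR adjusted p = 0.575). In females neither passed (−0.40 and −0.13, edgeR adjusted p = 0.386 and 0.866). Density of short exons is overstated on this scale, because a read that only touches an exon is counted in it.

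**Figure D3:**
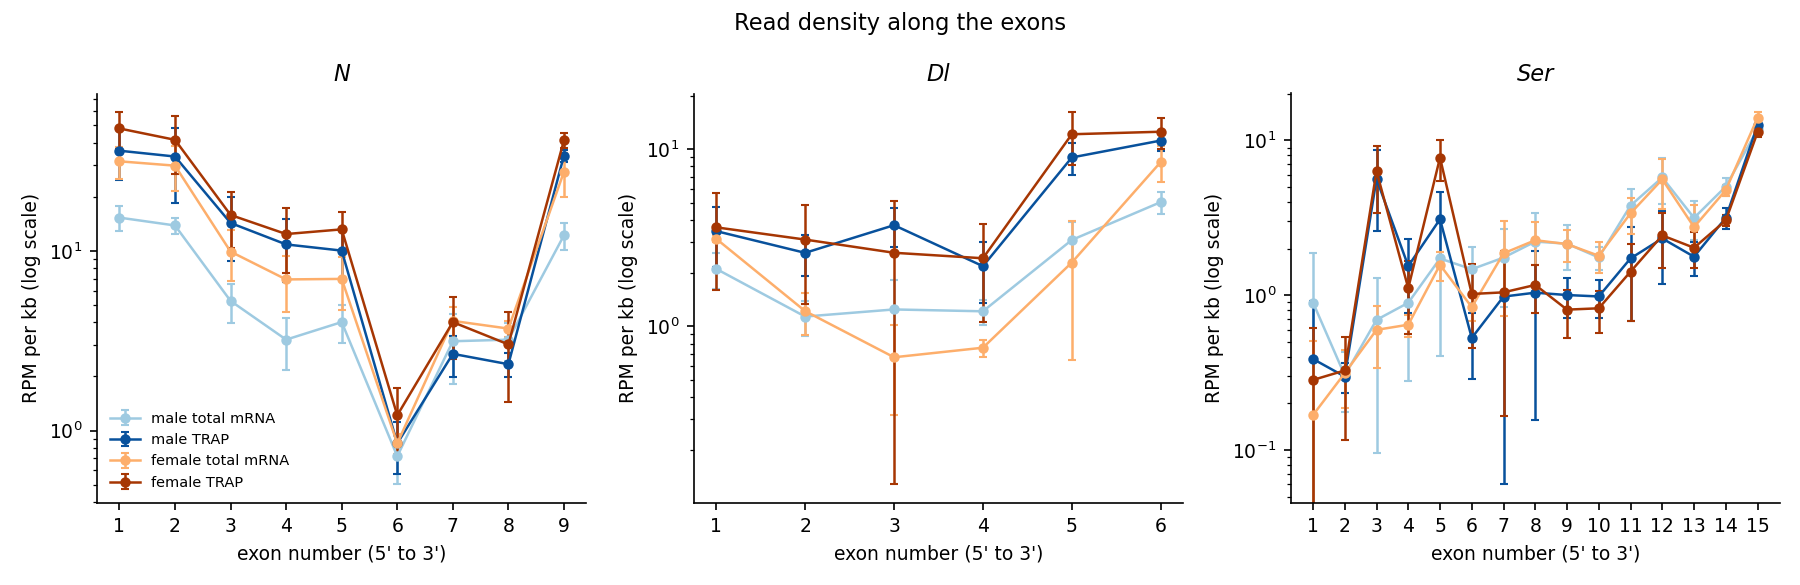
Mean read density in RPM per kb (log axis) with bars of 1 SD along the exons of N, Dl and Ser, numbered from the 5′ end, in the 4 groups. In N the density falls from 36.1 in exon 1 to 0.848 in exon 6 and returns to 33.9 in exon 9 of male TRAP; in Ser the TRAP means lie above total mRNA at exon 3 and below it at exon 10.

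For each read of exon 6, exon 1 of N gave 3.34 to 10.8 reads in male TRAP and 1.62 to 4.82 in the lysates. The log2 ratio was higher in TRAP by 0.98 (SE 0.41), with overlap of libraries (exact permutation test, two-sided, p = 0.0476). In females the difference was 0.15 (SE 0.47, exact permutation p = 0.743). These tests treat the libraries as separate, although TRAP and total mRNA of a replicate share a lysate. Within lysates the ratio was higher in TRAP in 5 of 5 male pairs (by 0.72 to 1.17, SE of the mean 0.09) and in 2 of 4 female pairs. An exact sign-flip test over pairs cannot go below p = 0.0625 with 5 pairs or 0.125 with 4, and gave 0.0625 in males and 1 in females. This ratio and the 3′ ratios of N and Dl given further on were chosen after the values were seen. In all 12 exact permutation tests of such ratios were run, with the sign-flip tests over pairs in addition, and all their p-values are unadjusted.

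Delta was also higher in TRAP in both sexes. Dl (chromosome 3R, 19302731 to 19326217, minus strand) had 40.8, 49.9, 48.3, 42.8 and 57.6 RPM in male TRAP replicates 1, 2, 3, 5 and 6, and 22.7, 21.6, 18.7, 20.3 and 26.1 RPM in total mRNA. The groups did not overlap, and the ratio of means was 2.19. In females Dl had 66.5, 44.5, 61.1 and 42.2 RPM in TRAP replicates 2, 3, 4 and 5, and 37.1, 45.1, 34.3 and 26.5 RPM in total mRNA. The ratio of female means was 1.498, and total mRNA replicate 3 lay above TRAP replicates 3 and 5.

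The last exon of Delta is annotated in 3 nested forms of 2127, 3162 and 3859 bp, which differ in the length of the 3′ UTR. All 3 records rose in male TRAP, the longest by 1.31 on the log2 scale (SE 0.14, edgeR adjusted p = 3.45e-15) and the shortest by 0.96 (SE 0.10, edgeR adjusted p = 2.25e-11). In females all 3 rose too, the longest by 0.56 (SE 0.23, edgeR adjusted p = 0.0113) and the shortest by 0.87 (SE 0.22, edgeR adjusted p = 0.000114). In total mRNA of the sexes the longest record was called lower in males, at −0.34 (SE 0.20, edgeR adjusted p = 0.0648), and the shortest higher, at 0.29 (SE 0.12, edgeR adjusted p = 0.0328). With library totals the shortest turned to −0.12 (adjusted p = 0.357) and the longest stood at −0.75. Without any 1 of the 4 female total mRNA libraries, the call on the shortest was lost as well (−0.16 to 0.07).

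A ratio within the exon does not depend on the scaling. For each read of the shortest form, male total mRNA gave 1.13 to 1.66 reads beyond its end and female total mRNA gave 2.18 to 3.47. The log2 ratio was lower in males (difference −0.94, SE 0.19), and the libraries did not overlap (exact permutation test, two-sided, p = 0.0159, the smallest possible with 5 against 4). Male TRAP gave 1.78 to 2.43, above every male total mRNA library (0.58, SE 0.12, exact permutation p = 0.00794, the smallest possible with 5 against 5). Female TRAP gave 1.59 to 2.53 and overlapped female total mRNA (−0.38, SE 0.22, exact permutation p = 0.2). Within lysates the ratio was higher in TRAP in 5 of 5 male pairs (by 0.43 to 0.81, exact sign-flip p = 0.0625) and in 1 of 4 female pairs (exact sign-flip p = 0.375). The TRAP groups of the sexes differed by 0.02 (SE 0.17, exact permutation p = 0.889), and whether the sex difference itself depended on the kind of library was not tested. The male germline markers, at 1099 RPM or more in male total mRNA and at most 25.4 RPM in a female library, differed between the same libraries, and their part in this ratio was not tested.

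For the receptor, whose last exon is annotated with 1048 and 1587 bp, reads beyond the shorter form numbered 2.11 to 3.96 for each read of it in male TRAP and 1.17 to 2.43 in male lysates (log2 difference 0.78, SE 0.24, exact permutation p = 0.0159). Female TRAP gave 2.56 to 3.21 and female total mRNA 1.59 to 2.65 (0.52, SE 0.17, exact permutation p = 0.0571). Within lysates it was higher in TRAP in 5 of 5 male pairs (by 0.66 to 0.96, exact sign-flip p = 0.0625) and in 3 of 4 female pairs (exact sign-flip p = 0.25). Between the sexes the difference was −0.24 in total mRNA (SE 0.24, exact permutation p = 0.365).

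**Figure D4:**
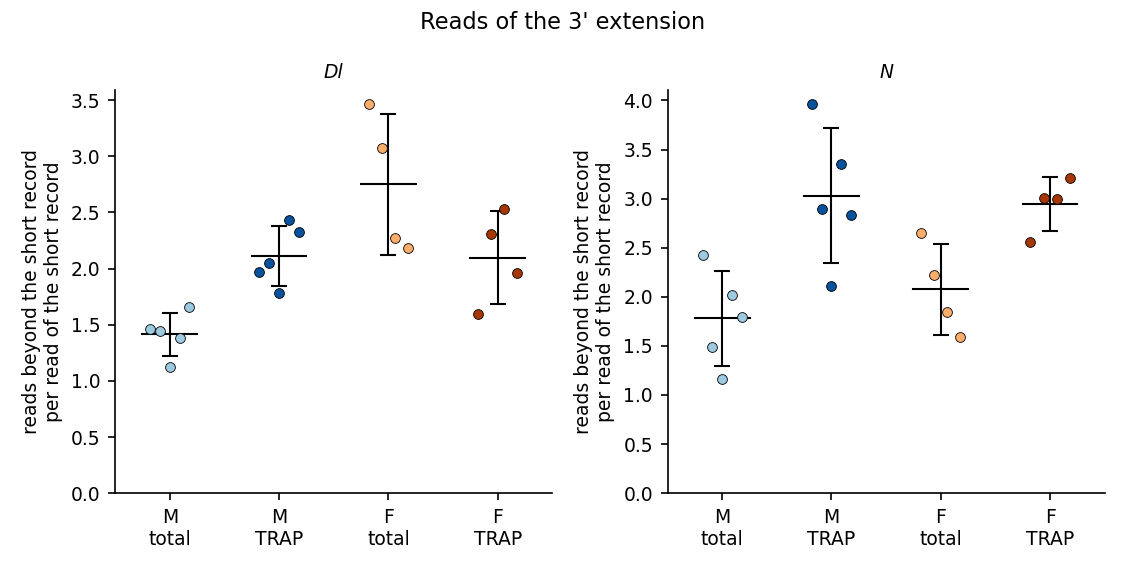
Reads beyond the end of the shortest annotated last exon, for each read of that shortest exon, for Dl and N in the 4 groups (points are libraries, lines are means, bars are 1 SD, axes start at 0). For Dl, male total mRNA lies at 1.13 to 1.66 and female total mRNA at 2.18 to 3.47.

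The other ligand gene was not higher in TRAP as a whole. Ser (chromosome 3R, 27172090 to 27194267, minus strand) had 22.1, 29.3, 26.9, 27.0 and 28.5 RPM in male TRAP replicates 1, 2, 3, 5 and 6, and 27.5, 29.3, 29.2, 28.9 and 27.9 RPM in total mRNA, and these groups overlapped. In females it had 27.9, 22.3, 25.0 and 24.4 RPM in TRAP replicates 2, 3, 4 and 5, all below the 32.0, 31.9, 33.9 and 28.5 RPM of total mRNA. The last exon was lower in female TRAP, at −0.31 on the log2 scale (SE 0.09, edgeR adjusted p = 0.0227), and was called higher in male TRAP, at 0.26 (SE 0.09, edgeR adjusted p = 0.0687). The male call was lost with library totals (0.09, adjusted p = 0.502) and without male total mRNA replicate 3 (0.18). Exon 14 was lower in TRAP in both sexes, at −0.50 in males (edgeR adjusted p = 0.00119) and −0.66 in females (edgeR adjusted p = 0.000207).

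Single exons of Ser went in opposite directions. Exon 3 (118 bp) had 0.244 to 1.16 RPM in male TRAP and 0.0324 to 0.206 RPM in male lysates, and 0.474 to 1.23 against 0.0314 to 0.105 RPM in females, and neither pair overlapped. In fits without the filter on low counts, in which 29.5% of 84932 records were higher in male TRAP and 24.6% of 83367 in female TRAP, exon 3 was higher in males (log2 fold change 2.87, edgeR adjusted p = 5.39e-08) and in females (edgeR adjusted p = 8.70e-08). Its counts were 1 to 12 per library in male total mRNA and 1 to 3 in female total mRNA, too low for a fold in females. Exon 10 (729 bp) had 0.488 to 1.02 RPM in male TRAP against 1.00 to 1.59 RPM in total mRNA, and 0.415 to 0.793 against 0.973 to 1.70 RPM in females. It was lower in these fits (29.1% and 16.1% of records), at −0.87 (edgeR adjusted p = 0.000256) and −1.25 (edgeR adjusted p = 0.000532). Exons 3 and 10 were chosen after their values were seen.

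Between the sexes the last exon of Ser was called higher in male than female TRAP, at 0.33 (SE 0.06, edgeR adjusted p = 0.0713). That call was lost with library totals (0.16, adjusted p = 0.460) and without female TRAP replicate 3 (0.27) or 5 (0.28). In total mRNA it was called higher in males, at 0.17 (SE 0.08, edgeR adjusted p = 0.108), a direction that turned to −0.25 (adjusted p = 0.00941) with library totals and to −0.28 to −0.13 without any 1 of the 4 female total mRNA libraries. The call was also lost without male total mRNA replicate 1 (0.10).

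Of the Notch targets, E(spl)mbeta-HLH was the most abundant, and it was called in opposite directions in the sexes. It lies on chromosome 3R at 26005046 to 26006023 (minus strand), in the gene complex that holds all 7 targets. In males it had 22.1, 28.5, 25.0, 23.6 and 32.0 RPM in TRAP replicates 1, 2, 3, 5 and 6, and 21.8, 19.8, 22.8, 19.8 and 18.2 RPM in total mRNA. TRAP was higher by 0.53 on the log2 scale (SE 0.11, edgeR adjusted p = 0.000653), with overlap of RPM at replicate 1. In females it had 27.1, 29.8, 30.9 and 28.6 RPM in TRAP replicates 2, 3, 4 and 5, all below the 32.6, 32.1, 33.1 and 36.8 RPM of total mRNA, and was called lower, at −0.21 (SE 0.06, edgeR adjusted p = 0.110). The female call was lost without female total mRNA replicate 5 (−0.16) or female TRAP replicate 2 (−0.16) or 5 (−0.19). The TRAP groups overlapped (0.02, SE 0.08, edgeR adjusted p = 0.963, and −0.01 with RLE scaling), and male total mRNA was below female total mRNA (−0.30, SE 0.08, edgeR adjusted p = 0.00480).

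E(spl)m3-HLH (26021823 to 26023127, plus strand) was higher in females in both kinds of library. It had 5.05 to 8.48 RPM in male TRAP and 9.57 to 10.7 RPM in female TRAP, with no overlap, a log2 difference of −0.45 (SE 0.10, edgeR adjusted p = 0.0284). Total mRNA gave 5.14 to 6.89 RPM in males and 12.0 to 13.3 RPM in females (−0.61, SE 0.06, edgeR adjusted p = 4.19e-10). Female TRAP was below female total mRNA (−0.32, SE 0.05, edgeR adjusted p = 0.0166). Male TRAP was called above male total mRNA, at 0.26 (SE 0.13, edgeR adjusted p = 0.124), but the call was lost with library totals (0.10, adjusted p = 0.614) and without male total mRNA replicate 1, 2, 3 or 5 or male TRAP replicate 3 or 6 (0.18 to 0.25).

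E(spl)m7-HLH (26037038 to 26038019, plus strand) had 7.04, 6.99, 7.57, 4.58 and 7.14 RPM in male TRAP replicates 1, 2, 3, 5 and 6, and 5.63, 4.57, 5.51, 4.75 and 5.21 RPM in total mRNA. TRAP replicate 5 lay within the total mRNA range and the others above it (0.54, SE 0.14, edgeR adjusted p = 0.00179). In females TRAP replicates 2, 3, 4 and 5 had 16.8, 9.42, 8.25 and 8.06 RPM, and total mRNA had 8.995, 9.16, 9.08 and 9.06 RPM. Female TRAP replicate 2 stood apart, and the difference did not pass (0.23, SE 0.23, edgeR adjusted p = 0.400, and −0.07 without that library). Male TRAP was called lower than female TRAP (−0.51, SE 0.27, edgeR adjusted p = 0.124). That call was lost without female TRAP replicate 2 (−0.26, adjusted p = 0.351) and without male TRAP replicate 2 (−0.49) or 5 (−0.37). In total mRNA the male level was lower (−0.40, SE 0.07, edgeR adjusted p = 0.000385).

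The 4 E(spl) genes below the filter were tested as gene sums on log2(RPM + 0.5), a scale that understates the change of low genes, by exact two-sided permutation over libraries without adjustment. E(spl)mgamma-HLH (25999851 to 26000761, plus strand), a target known from neural stem cells, had 1.29, 1.45, 1.97, 0.559 and 0.902 RPM in male TRAP replicates 1, 2, 3, 5 and 6, and 0.208, 0.188, 0.227, 0.0516 and 0.102 RPM in total mRNA. All TRAP libraries lay above all total mRNA libraries, and the ratio of means was 7.95 (log2 difference 1.35, SE 0.22, exact permutation p = 0.00794). In females TRAP replicates 2, 3, 4 and 5 had 4.36, 1.69, 0.529 and 0.993 RPM, and total mRNA had 0.0402, 0.188, 0.131 and 0.0699 RPM (1.73, SE 0.49, exact permutation p = 0.0286, the smallest possible with 4 against 4). The ratio of female means was 17.6, and 9.97 without female TRAP replicate 2, when the exact permutation p was 0.0571, the smallest possible with 3 against 4. The female total mRNA below these ratios held only 1, 6, 4 and 2 counts in replicates 2, 3, 4 and 5. Some of these are under a floor of 3 counts, so the size of the female ratios is uncertain. Male total mRNA held 3 to 11 counts per library.

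E(spl)m8-HLH (26040240 to 26041008, plus strand), a target known from proneural clusters, was also higher in TRAP. It had 0.190 to 0.819 RPM in male TRAP (8 to 30 counts per library) and 0.0313 to 0.227 RPM in male lysates (1 to 11 counts), with overlap and a ratio of means of 4.06 (log2 difference 0.67, SE 0.19, exact permutation p = 0.0238). In female TRAP replicates 2, 3, 4 and 5 it had 1.90, 0.639, 0.264 and 0.252 RPM. Female total mRNA held 0 to 3 counts per library, at or under a floor of 3 counts, so no fold is given (log2 difference 1.05, SE 0.40, exact permutation p = 0.0286). E(spl)mdelta-HLH (25997621 to 25998633, plus strand) had 0.418 to 1.15 RPM in male TRAP against 0.125 to 0.454 RPM in total mRNA (0.54, SE 0.19, exact permutation p = 0.0238) and 0.352 to 0.961 against 0.0803 to 0.220 RPM in females (0.78, SE 0.17, exact permutation p = 0.0286). E(spl)m5-HLH (26028854 to 26029735, minus strand) had 0 to 8 counts in any library and did not pass (exact permutation p = 0.119 in males and 0.6 in females). In the fits without the filter it was called higher in male TRAP (edgeR adjusted p = 0.0767), with 16 counts over those libraries and 5 over the male lysates, and not in females (edgeR adjusted p = 0.918). The other 3 genes were called higher in TRAP in both sexes in those fits (edgeR adjusted p = 0.00503 or lower). Without female TRAP replicate 2 the female differences were 0.69 for E(spl)m8-HLH and 0.64 for E(spl)mdelta-HLH, each at the smallest possible exact permutation p of 0.0571.

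Of these 4 genes none passed between the sexes in TRAP (exact permutation p = 0.619 for E(spl)mgamma-HLH, 0.698 for E(spl)m8-HLH, 0.857 for E(spl)mdelta-HLH and 1 for E(spl)m5-HLH). Female TRAP replicate 2 alone held 195 of the 354 counts of E(spl)mgamma-HLH and 85 of the 139 counts of E(spl)m8-HLH in its group. It was also the highest female TRAP library for several precursor genes. There mira, which segregates fate determinants in neuroblasts, had 18.9 RPM against 2.79 to 5.32 RPM in the other female TRAP libraries. The ubiquitin ligase gene neur had 81.8 against 34.3 to 38.6 RPM, and the proneural partner sens had 4.92 against 0.852 to 2.17 RPM.

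Precursor genes also differed between TRAP and total mRNA. The level of mira was 3.09 to 7.40 RPM in male TRAP and at most 0.813 RPM in male and 0.915 RPM in female total mRNA. The precursor gene ase had 0.959 to 1.77 RPM in male TRAP and at most 0.138 RPM in male total mRNA. The neuroblast gene wor, however, was near 0 throughout, with 0.0266 to 0.246 RPM in TRAP libraries and up to 0.261 RPM in total mRNA. Of 6 neuroblast and precursor markers 5 reached 1 RPM in each TRAP group and 2 in each total mRNA group, and their summed level, mostly pros, was 982 to 1365 RPM in TRAP against 255 to 416 RPM in the lysates of males, and 715 to 1000 against 316 to 545 RPM in females. Their part in the TRAP levels of the low E(spl) genes was not tested.

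**Figure D5:**
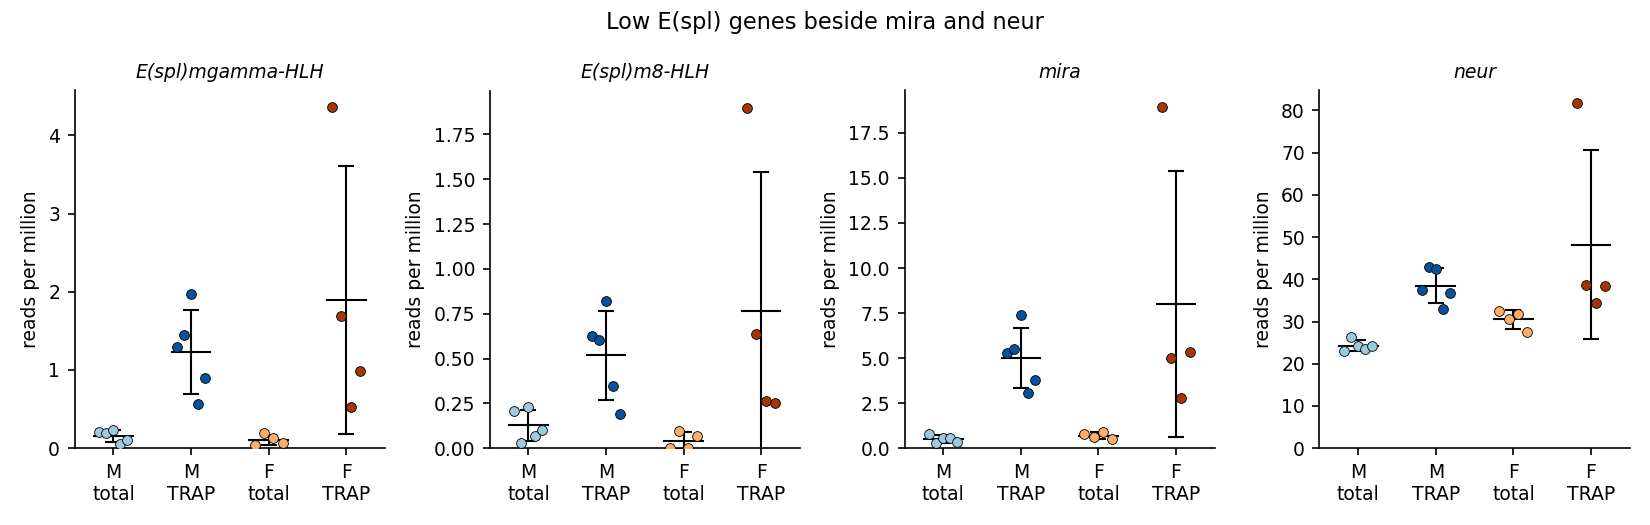
Levels in RPM (axes start at 0) of E(spl)mgamma-HLH and E(spl)m8-HLH beside the precursor genes mira and neur, with libraries as points, means as lines and 1 SD as bars. In each panel the highest female TRAP point is replicate 2, at 4.36, 1.90, 18.9 and 81.8 RPM.

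Most reads of the 7 targets came from the same gene in every group. In males E(spl)mbeta-HLH made up 62.6% ± 4.87 (SD, n = 5) of their reads in TRAP and 63.2% ± 2.39 in the lysates, and in females 55.4% ± 8.01 (SD, n = 4) and 60.5% ± 2.14. E(spl)mgamma-HLH made up 2.92% ± 1.16 of them in male TRAP and 3.34% ± 2.61 in female TRAP, against 0.473% ± 0.214 and 0.193% ± 0.120 in total mRNA. The 7 genes together had 34.8 to 48.7 RPM in male TRAP against 30.8 to 35.3 RPM in total mRNA, and 48.0 to 62.0 against 54.0 to 58.2 RPM in females, and both pairs overlapped.

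Whether TRAP enrichment differed by sex was tested as an interaction (edgeR quasi-likelihood F test, all 18 libraries), with positive values where the male ratio of TRAP to total mRNA was above the female one. Of 15 member records 11 had a higher male ratio, against 47.1% of all records, and these belonged to 5 of the 6 genes, against 57.9% of genes. A lower male ratio was called for 0 member records (13.7% of records, 18.7% of genes), also 0 at an unadjusted p under 0.05 and 0 with DESeq2. These values carry a shift of the whole data set, since the median of all 34095 records was 0.42 with TMM, 0.08 with RLE scaling and 0.17 with library totals. The last exon of N had a difference of 1.17 (SE 0.30, edgeR adjusted p = 0.00363), which is 0.75 above that median and 0.73 above it with RLE scaling. E(spl)mbeta-HLH had 0.82 (SE 0.11, edgeR adjusted p = 0.000926), which is 0.40 above the median with either scaling. Both calls held with RLE scaling (adjusted p = 0.0496 and 0.0402), but the member records called fell from 11 to 6 of 15, where 14.9% of all records were called. Those 6 belonged to the same 5 genes.

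The longest Dl last exon was 0.43 above the median (0.86, SE 0.27, edgeR adjusted p = 0.0124), and the last exon of Ser and E(spl)m3-HLH were each 0.25 above it (0.67 each, edgeR adjusted p = 0.00280 and 0.00592). The 5 records that no longer passed with RLE scaling were exons 1, 2 and 3 of N (0.53, 0.71 and 0.70, adjusted p = 0.255, 0.249 and 0.245) and the middle last exon and exon 1 of Dl (0.25 and 0.41, adjusted p = 0.480 and 0.567). E(spl)m7-HLH was 0.01 below the median (0.41, SE 0.26, edgeR adjusted p = 0.213), but passed with the lysate as a block (0.46, adjusted p = 0.0823) and without female TRAP replicate 2 (0.69, adjusted p = 0.0114), male TRAP replicate 1 (0.44) or 5 (0.50) or female total mRNA replicate 5 (0.48). Exon 6 of N was 0.44 below the median (−0.02, SE 0.33, edgeR adjusted p = 0.966) and the shortest Dl last exon 0.23 below it (0.19, SE 0.24, edgeR adjusted p = 0.516). The Dl record passed without female TRAP replicate 2 (0.41, adjusted p = 0.0906). In male against female total mRNA the median of all records was −0.02 with TMM and −0.43 with library totals, and the last exon of N, E(spl)m3-HLH, E(spl)m7-HLH and E(spl)mbeta-HLH were lower in males with both.

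Of 48 other pathway genes, 29 had a tested record in males and 30 in females. In male TRAP 23 of 29 had a record above total mRNA (43.5% of all genes tested) and 10 a record below it (50.0%), with 7 in both counts. In female TRAP 17 of 30 had a higher record (38.4% of genes) and 4 a lower one (48.4%). Between male and female TRAP 6 of 30 were higher in males (31.7% of genes) and 1 lower (25.6%). The lower one was O-fut1, a Notch O-fucosyltransferase, named after its value was seen. In total mRNA 17 of 30 had a record that was higher in males (47.3% of genes) and 15 a lower one (46.2%), with 5 in both counts. These shares of all genes apply to the counts of each list below too. A gene with more tested records has more chances of a call.

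Ligand signalling depends on ubiquitin ligases and epsin, which drive endocytosis of Delta and Serrate. All 3 genes of this list had a higher record in male TRAP, lqf (epsin) also a lower one, and lqf and neur had a higher record in female TRAP. Exon 3 of neur had 32.7 ± 1.91 CPM in male TRAP (SD, n = 5) against 18.4 ± 2.07 in total mRNA (log2 fold change 0.83, SE 0.08, edgeR adjusted p = 8.50e-10). The ligase gene mib1 was lower in female TRAP (−0.48, SE 0.06, edgeR adjusted p = 0.000118). An exon of lqf had 15.8 ± 6.05 CPM in male TRAP and 1.80 ± 0.542 CPM in female TRAP (log2 fold change 3.14, SE 0.27, edgeR adjusted p = 2.10e-21). The sexes also differed in total mRNA, where an overlapping lqf record had 42.7 ± 2.22 CPM in males and 1.80 ± 0.204 CPM in females (log2 fold change 4.56, SE 0.07). Overlap with records of other genes was checked only for the members of the Notch set, not for lqf or the other pathway genes.

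Of genes that modify and cut the receptor, 8 of 10 tested had a higher record in male TRAP, Psn and nct among them also a lower one, and 6 of 11 in female TRAP, where fng had a lower one. The metalloprotease gene kuz, whose product sheds the Notch ectodomain, had a record at 17.7 ± 8.34 CPM in male TRAP against 2.27 ± 0.849 in total mRNA (log2 fold change 2.96, SE 0.34, edgeR adjusted p = 5.31e-17). The furin gene Fur1 rose by 2.24 in males (SE 0.18, edgeR adjusted p = 2.99e-30) and by 1.28 in females (SE 0.23, edgeR adjusted p = 1.82e-09). Records of the γ-secretase genes Psn and aph-1 were higher in male than female total mRNA, by 1.12 (SE 0.12, edgeR adjusted p = 4.12e-14) and 0.94 (SE 0.16, edgeR adjusted p = 8.53e-08).

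Among receptor trafficking genes and inhibitors, 2 of 4 tested had a higher record in TRAP in each sex, while 4 had a lower record in males and 2 in females. The ligase gene Nedd4 had a record higher in male TRAP by 0.64 (SE 0.11, edgeR adjusted p = 2.59e-05). Records of Su(dx) and dx, other regulators of Notch trafficking, were lower in female TRAP (−0.51 each, edgeR adjusted p = 9.02e-05 and 0.00226). The Notch inhibitor numb had a record higher in male than female total mRNA by 1.05 (SE 0.04, edgeR adjusted p = 1.13e-37).

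All 6 genes of the nuclear complex and its corepressors had a higher record in male TRAP (43.5% of all genes), H and Su(H) also a lower one (50.0%). In female TRAP 4 of 6 had a higher record (38.4% of genes) and 0 a lower one (48.4%). The coactivator mam had a record at 70.5 ± 14.3 CPM in male TRAP against 12.6 ± 3.44 in total mRNA (log2 fold change 2.49, SE 0.23, edgeR adjusted p = 1.95e-26). The first exon of the corepressor gene CtBP rose by 3.39 in males (SE 0.26, edgeR adjusted p = 1.95e-32) and 2.52 in females (SE 0.29, edgeR adjusted p = 1.73e-19), and that of Smr rose by 4.42 in females (SE 0.37, edgeR adjusted p = 2.63e-34). The corepressor gene gro, a partner of the E(spl) proteins, had a record higher in male than female TRAP by 0.65 (SE 0.13, edgeR adjusted p = 0.00202). Another record of gro was higher in male than female total mRNA by 1.33 (SE 0.07, edgeR adjusted p = 1.98e-41).

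Of 8 Bearded family genes, which encode inhibitors of Neuralized, only E(spl)m2-BFM was tested, and it was higher in male TRAP by 0.48 (SE 0.11, edgeR adjusted p = 0.00249). Of 5 other Hes/Hey genes 3 were tested, of which 2 were higher and 1 (Sidpn) lower in male TRAP and 3 higher in female TRAP. For cwo, a repressor of the circadian clock, the records named here are different exons in the sexes. Exon 4 was higher in TRAP in males by 1.66 (SE 0.18, edgeR adjusted p = 1.04e-17) and exon 3 in females by 2.51 (SE 0.30, edgeR adjusted p = 4.10e-15). These sizes cannot be compared. In the interaction test a record of cwo was called with a higher male ratio (57.9% of genes). Of 10 proneural genes and partners 2 were tested (da and emc), and emc, an inhibitor of the proneural proteins, was higher in male TRAP by 0.89 (SE 0.14, edgeR adjusted p = 2.70e-07).

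The genes whose level over the 18 libraries was most like that of N were bves (Pearson r = 0.992), CG43658 (r = 0.988) and lncRNA:CR45204 (r = 0.986). For Dl they were lncRNA:CR45102 (r = 0.983), PAN3 (r = 0.983) and CG43736 (r = 0.983), and for the summed E(spl) bHLH genes Seipin (r = 0.975), rdo (r = 0.969) and wat (r = 0.963). These were the highest correlations of log2(RPM + 0.5) among 9463 genes with a mean of at least 5 RPM. The libraries fall into 4 groups and share lysates in pairs, so the values are a description.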

How the data were processed

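Per the labels and the study's methods, the authors aligned reads of poly(A) libraries with STAR 2.7.2a to dm6 and ran featureCounts on uniquely mapped reads to count each exon record. The deposited values used here are raw counts. Which annotation release and strand option were used is not given in the sources used here. A deposited RPM table was not used. The total count per library was 24901633 to 67491630. Intervals and floors cover counting error only, since no molecular identifiers were counted. P-values measure the spread between these pooled samples.

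Records were assigned to genes by gene ID, and 17626 of 17753 IDs had a symbol; Dl, h, nct and kul carry updated symbols in the reference and were matched by ID. Gene sums used records that do not overlap. The SE beside an edgeR log2 fold change is that of the difference of group means of log2(CPM + 0.5), taken from the spread between libraries. For the interaction it covers all 4 groups. It is not the SE of the edgeR estimate itself, and the log2(CPM + 0.5) scale is compressed at low CPM. Tests used R 4.3.3 and edgeR 4.0.16, with tagwise dispersions for the exact test and the quasi-likelihood F test for the interaction. The scripts were tested on simulated data.

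The members, gene lists and tests were chosen with earlier results of these data known. All 10 members are named. For each pathway list and comparison, up to 2 called genes could be named, taken by size of log2 fold change among those reaching 5 CPM whose groups did not overlap. For likeness the 3 best correlated genes are named. TRAP and total mRNA of a replicate come from the same lysate, which pairs them within a sex (correlations of deviations 0.124 to 0.609 in males and −0.069 to 0.287 in females). Alternatives were RLE scaling, no filter, the quasi-likelihood test, DESeq2 1.42.0, FDR under 0.05, gene sums, the replicate block, TMM within each sex, a pseudocount of 0.1 RPM and leaving out each library. Library totals without scaling, ratios within a gene, values relative to the median of all records, the low members without female TRAP replicate 2 and paired differences of the ratios were added after seeing the data.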

Additional observations from a re-analysis of the deposited data

Results flagged for a closer look

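In male TRAP, the lowest E(spl)m7-HLH library (replicate 5, 4.58 RPM) lay far from the other 4, and in female TRAP the highest (replicate 2, 16.8 RPM) lay far from the other 3. These were 2 of 40 groups of member levels examined, and chance gives about 1 in 20.

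The TRAP to total mRNA ratio differed between the sexes (edgeR quasi-likelihood F test, log2 scale) for the first exon of N (0.90), the last exon of N (1.17), the longest last exon of Dl (0.86), the last exon of Ser (0.67), E(spl)m3-HLH (0.67) and E(spl)mbeta-HLH (0.82), all with the higher ratio in males, beside a median of 0.42 over all records.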

How the results depend on the processing

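With each library left out in turn, the number of members with a higher record in male TRAP than in male total mRNA was 4 to 6, and with a lower one 1; in females these were 2 and 2 to 3. Between male and female TRAP they were 0 to 1 higher and 1 to 3 lower, in total mRNA 0 to 2 higher and 5 to 6 lower, and for the sex difference in enrichment 5 to 6 higher and 0 lower. Without the filter on low counts, 2 members had a lower record in male TRAP, where 29.1% of all records were lower. In female TRAP 6 had a higher record, where 24.6% of all records were higher. Those fits gave 0 members with a higher record in male than female TRAP and 4 with a higher record in male total mRNA. A lower male enrichment was called for 1 (Ser, exon 6). Shares of all genes are not given for the counts in this paragraph, which show only how calls change with the processing. With gene sums 0 members were lower in male TRAP and 1 higher in male total mRNA. With library totals 0 were higher in male TRAP than in female TRAP and 0 in male total mRNA. At FDR under 0.05, 0 were higher and 1 was lower in male than female TRAP. At that threshold Ser and E(spl)m3-HLH also lost their higher record in male TRAP against male total mRNA. E(spl)mbeta-HLH lost its lower record in female TRAP, and Dl its lower record in male against female total mRNA.

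With RLE scaling the member records called for a higher male enrichment were 6 of 15, against 11. Values near 0 turned. Between male and female TRAP the last exon of Dl was −0.0245 with RLE, −0.0244 with DESeq2, −0.0016 without the filter, −0.0097 with the replicate block and −0.16 with library totals, and E(spl)mbeta-HLH was −0.0125 with RLE, −0.0121 with DESeq2, −0.0401 with the block and −0.15 with library totals. E(spl)m5-HLH was −0.0223 with a pseudocount of 0.1 RPM. In total mRNA the longest exon of N was −0.0061 without the filter and −0.25 with library totals, the shortest Dl last exon −0.12 and the Ser last exon −0.25 with library totals. For the sex difference in enrichment, the longest exon of N was 0.047 with the block, the shortest Dl last exon −0.17 with RLE and DESeq2 and −0.074 with library totals, and Ser exon 14 −0.103 with RLE, −0.0933 with DESeq2 and −0.0117 with library totals. The cause was not tested.

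Leaving out single libraries gave ranges that cross 0 for E(spl)m7-HLH in female TRAP against total mRNA (−0.0651 to 0.35), for Dl last exon (−0.14 to 0.0662), Dl shortest last exon (−0.16 to 0.15) and E(spl)mbeta-HLH (−0.0734 to 0.0568) between male and female TRAP, for the longest exon of N (−0.23 to 0.25), Dl shortest last exon (−0.16 to 0.34) and Ser last exon (−0.28 to 0.22) in total mRNA, and for the longest exon of N in the sex difference (−0.17 to 0.28). Without female TRAP replicate 2, E(spl)m5-HLH in female TRAP against total mRNA was −0.0143, and between male and female TRAP E(spl)m8-HLH was 0.19 and E(spl)mgamma-HLH 0.15. Some sizes in male against female total mRNA varied although every call was kept. E(spl)m3-HLH ran from −1.02 to −0.59, E(spl)m7-HLH from −0.79 to −0.36 and E(spl)mbeta-HLH from −0.64 to −0.25.

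With the replicate block, the lysate pairing lost the call on exon 2 of N in female TRAP (adjusted p = 0.215) and, between male and female total mRNA, where the sexes share only a number, on the shortest Dl last exon (0.24, adjusted p = 0.202) and the Ser last exon (0.13, adjusted p = 0.377). It added calls on the first exon of N between male and female TRAP (−0.31), the longest exon of N in total mRNA (0.37) and E(spl)m7-HLH in the sex difference (0.46).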
